A study of Mus musculus with 8 samples.

Results

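The collagens are the 44 genes of the deposited table whose mouse symbol has the form Col, a type number, the letter a and a chain number, out of 55416 listed genes. They comprised 11 fibrillar genes, 6 basement membrane (type IV) genes, 6 beaded filament (type VI) genes and 21 others. The test took in the 19 collagens with 1 TPM or more in 4 or more of the 8 libraries, namely 7, 3, 3 and 6 of these classes. TPM, a transcript abundance, is divided by transcript length and scaled to a fixed total in each library, so TPM values can be compared between genes.

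The libraries were made from mouse liver, 4 from floxed controls with the genotype label Alb-cre- and 4 from hepatocyte knockouts of *Smpd3* with the label Alb-cre+, in which Cre is driven by the albumin promoter. Both groups received HFMCD for 9 weeks, so no other diet was compared, and because the controls lack Cre, an effect of Cre itself and one of losing *Smpd3* cannot be told apart. The labels give no age, sex or strain. They also do not say whether different libraries are different mice. The p-values therefore judge results against the variation among these libraries, which may not be variation between mice. *Smpd3*, which encodes neutral sphingomyelinase 2, stood at 6.38 to 12.5 TPM across the floxed libraries and at 1.17 to 3.03 TPM in the knockouts. Floxed control 4 stood apart before any comparison, where 12115 genes reached 1 TPM and the remaining 7 libraries had 12474 to 12890. It also had the largest share of its TPM in its 20 most abundant genes (33.8% against 28.6% to 31.4%).

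Collagens are built from chains that wind into triple helices, often from different genes. Fibrillar types I, III and V assemble into the fibers of scar tissue, type IV forms the sheet of basement membranes, and type VI forms beaded filaments between cells and fibers. In injured liver, activated hepatic stellate cells and portal fibroblasts are the best known sources of fibrillar collagen, while endothelial and other cells contribute type IV, and hepatocytes contribute type XVIII.

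The upstream letters of 3 fibrillar genes are shown because *Col1a2* and *Col3a1* each had r = 0.98 with *Col1a1* over the 8 libraries and *Col5a3* had r = 0.08 (log2(TPM + 1) values, given as a description). RefSeq promoter windows (GRCm38.p6) were found for 35 of the 44 collagens, not including *Col1a1*, and the 250 bases before the start in that table were searched on both strands for the CCAAT box, the GC box GGGCGG and the TATA letters TATAAA. Capitals mark these matches, a reverse-strand match appearing as its reverse complement. The *Col1a2* window lies at chr6:4505370-4505492 on the plus strand, cut to the 123 bases outside annotated exons, the *Col3a1* window at chr1:45311288-45311537 on the plus strand and the *Col5a3* window at chr9:20815068-20815317 on the minus strand, printed 5′ to 3′ for each gene.
Col1a2: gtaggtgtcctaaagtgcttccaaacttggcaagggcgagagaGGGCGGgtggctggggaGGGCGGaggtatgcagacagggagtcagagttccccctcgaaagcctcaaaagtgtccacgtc
Col3a1: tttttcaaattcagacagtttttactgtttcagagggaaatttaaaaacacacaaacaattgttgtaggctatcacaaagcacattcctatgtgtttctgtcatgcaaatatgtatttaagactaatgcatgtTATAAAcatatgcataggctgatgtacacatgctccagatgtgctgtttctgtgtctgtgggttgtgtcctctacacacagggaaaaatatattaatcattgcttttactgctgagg
Col5a3: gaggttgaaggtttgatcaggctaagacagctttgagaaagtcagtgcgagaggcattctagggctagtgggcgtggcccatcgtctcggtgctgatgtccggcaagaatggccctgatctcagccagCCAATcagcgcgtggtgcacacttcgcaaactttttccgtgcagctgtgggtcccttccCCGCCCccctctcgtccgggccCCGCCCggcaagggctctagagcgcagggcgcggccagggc
The whole *Col1a2* window held GGGCGG at 2 places and, in the part not printed, CCAAT, *Col3a1* held TATAAA alone, and *Col5a3* held CCAAT and, on the reverse strand, GGGCGG at 2 places. The GC content of the whole 250-base windows was 62.0%, 35.2% and 62.8%, against a median of 52.4% over all windows. Of 32851 windows of all genes, 33.8% held CCAAT, 32.7% GGGCGG and 12.4% TATAAA. Of the 15 tested collagens with a window, 7 held CCAAT, 9 GGGCGG and 2 TATAAA in any of their windows. Counted by window, as in the shares of all genes, these were 7, 10 and 2 of 17. These are matches of letters, not shown binding sites.

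**Figure D1:**
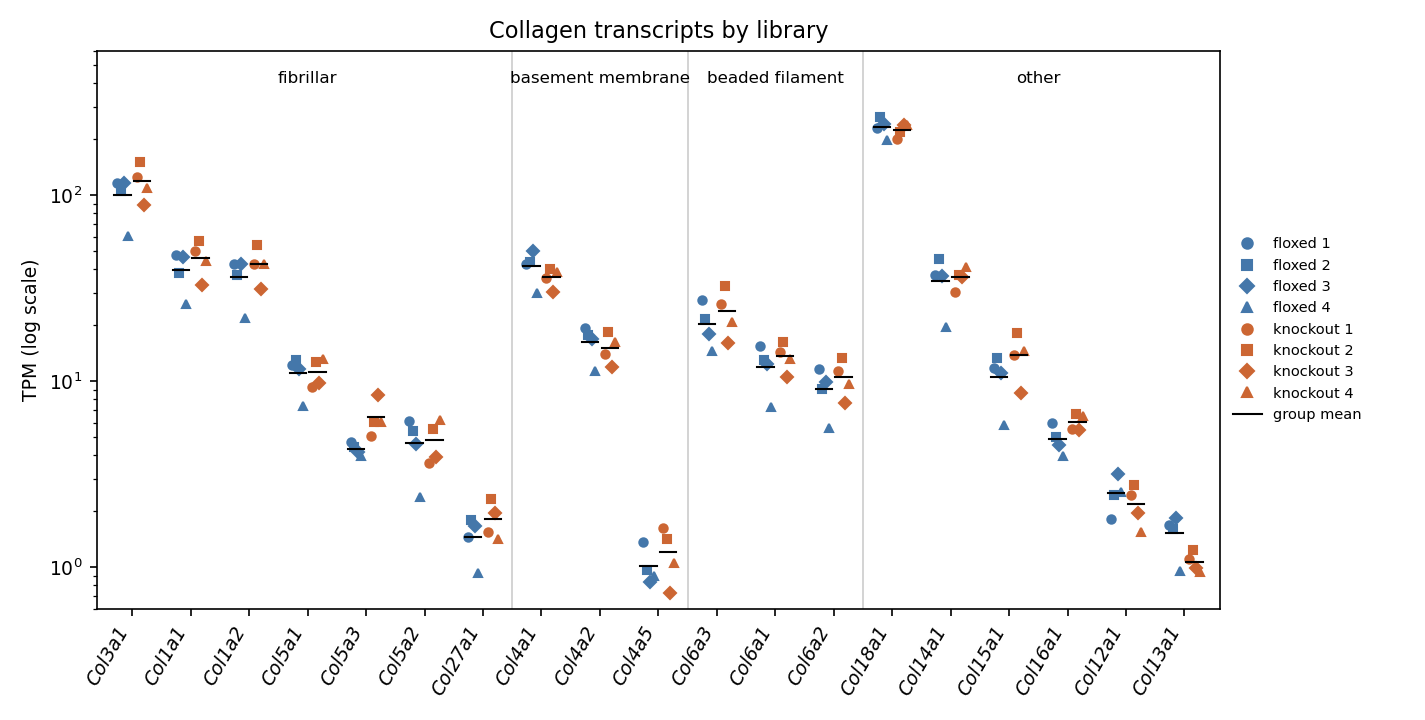
TPM of the 19 tested collagens (log axis) in each of the 4 floxed control and 4 knockout libraries, by class, with group means as black lines. Floxed control 4 is the lowest of the 8 libraries in 16 of the 19 genes, and the groups overlap in every gene except Col5a3.

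Collagen transcripts together made up 0.0428% to 0.0703% of library TPM. Their sum was 642, 647, 638 and 426 TPM in floxed controls 1 to 4 and 598, 699.8, 549.8 and 629.6 TPM in knockouts 1 to 4. The controls other than floxed control 4 lay within the range of the knockouts. In whole liver, fewer cells of a type and less RNA per cell cannot be told apart. *Col18a1* held on average 38.4% of all collagen TPM over the 8 libraries and *Col3a1* 17.9%. In the controls the next were *Col4a1* (7.09%), *Col1a1* (6.70%), *Col1a2* (6.08%) and *Col14a1* (5.80%), and in the knockouts *Col1a1* (7.40%), *Col1a2* (6.86%), *Col14a1* (5.90%) and *Col4a1* (5.84%).

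No collagen gene passed an adjusted p of 0.05 in the comparison of knockout with control (limma, adjusted over all 12710 genes tested, where 13 genes or 0.102% passed, 0.0472% higher and 0.0551% lower in the knockout). The smallest adjusted p among the 19 was 0.396, and 1 collagen had an unadjusted p under 0.05, against 8.02% of all genes. The log2 fold changes, taken as knockout minus control of log2(TPM + 1), a scale on which changes at low TPM look smaller than they are, were above 0 in 14 collagens and below 0 in 5. Among all genes 64.6% were above 0. Their median was 0.19, beside 0.05 for all genes, and without floxed control 4 it was 0.01, beside -0.01, with 10 above 0 and 9 below. It was 0.09 without knockout 2.

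**Figure D2:**
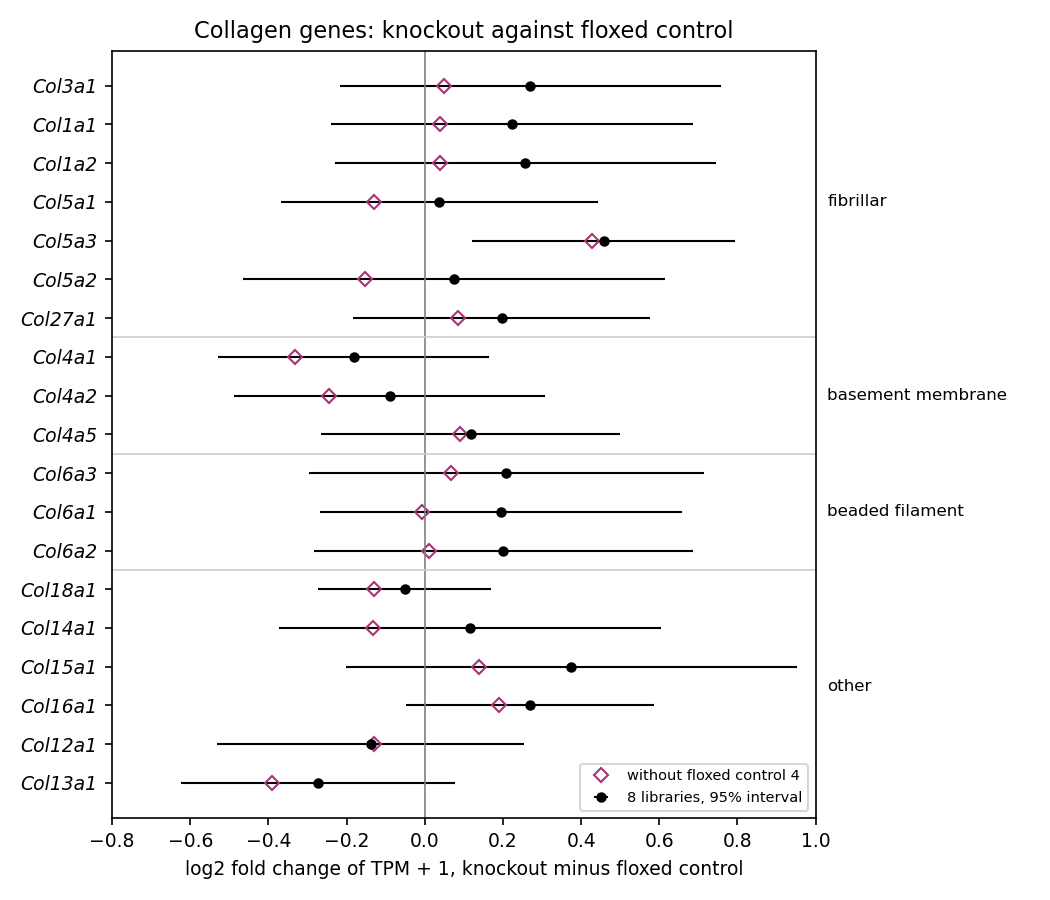
Log2 fold change of TPM + 1, knockout minus floxed control, of the 19 tested collagens by class, with 95% intervals from limma over 8 libraries (black) and the estimate without floxed control 4 (open diamonds). Every interval except that of Col5a3 includes 0, and the estimates of Col5a1, Col5a2, Col6a1 and Col14a1 change sign without floxed control 4.

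The fibrillar collagens of the scar matrix were not shown to differ between the genotypes. For *Col3a1*, whose single chain forms type III, TPM was 117, 106, 116 and 60.5 TPM in floxed controls 1 to 4 and 125, 152, 89.0 and 109.8 TPM in knockouts 1 to 4. Floxed control 4 was the lowest and knockout 2 the highest, and the groups overlapped. The group levels were 99.9 ± 26.7 and 119 ± 26.6 TPM (SD, n = 4 each), with a log2 fold change of 0.27 ± 0.22 (SE), a 95% interval from -0.22 to 0.76 and an adjusted p of 0.858 in limma. Without floxed control 4 the log2 fold change was 0.05.

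*Col1a1* encodes the α1 chain of type I, the main collagen of liver scar. It stood at 47.8, 38.5, 46.6 and 26.0 TPM across the floxed libraries and at 50.1, 57.0, 33.2 and 44.4 TPM in the knockouts, in the same order of libraries as *Col3a1*. Its log2 fold change was 0.22 ± 0.21 (SE; 95% interval -0.24 to 0.69; adjusted p = 0.888 in limma), and 0.04 without floxed control 4. *Col1a2*, which encodes the α2 chain of the same trimer, stood at 42.6, 37.5, 42.9 and 21.9 TPM across the floxed libraries and at 42.7, 54.3, 31.5 and 42.9 TPM in the knockouts. Here too knockout 2 was highest, floxed control 4 lowest and knockout 3 lowest of the knockouts. *Col1a2* had a log2 fold change of 0.26 ± 0.22 (SE; 95% interval -0.23 to 0.75; adjusted p = 0.870 in limma), and 0.04 without floxed control 4.

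Type V chains join type I fibrils and help to start them. *Col5a1* stood at 12.2, 12.95, 11.6 and 7.36 TPM across the floxed libraries and at 9.34, 12.7, 9.81 and 13.1 TPM in the knockouts. Its log2 fold change was 0.04 (95% interval -0.37 to 0.44). Its partner *Col5a2* went from 4.63 ± 1.63 to 4.81 ± 1.24 TPM (SD, n = 4 each; 95% interval -0.47 to 0.62). Both chains were lowest in floxed control 4 and highest in knockout 4, so their order of libraries was not that of type I.

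The third type V chain, *Col5a3*, was the only one of the 19 tested collagens whose TPM did not overlap between the groups, which held for 4.74% of all genes tested. It measured 4.69, 4.43, 4.19 and 3.99 TPM in floxed controls 1 to 4 and at 5.11, 6.04, 8.41 and 6.03 TPM in knockouts 1 to 4. Every knockout was above every control, and knockout 3, which was lowest of the knockouts in *Col1a1* and *Col3a1*, was highest here. The knockout mean was 148% of the control mean (4.33 ± 0.30 and 6.40 ± 1.41 TPM; SD, n = 4 each). The log2 fold change was 0.46 ± 0.15 (SE; 95% interval 0.12 to 0.79), with an unadjusted p of 0.0125 and an adjusted p of 0.396 in limma, so *Col5a3* did not pass. Without knockout 3 it was 0.34 and without floxed control 4 it was 0.43.

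*Col27a1*, a fibrillar collagen known from cartilage, stood at 1.46 ± 0.38 TPM across the floxed libraries and 1.81 ± 0.41 TPM in the knockouts (SD, n = 4 each). All 7 tested fibrillar genes had a log2 fold change above 0, with a median of 0.22. Leaving out floxed control 4 gave a median of 0.04, leaving out knockout 3 gave 0.34 and leaving out knockout 2 gave 0.11. The other 4 fibrillar genes were not tested: *Col2a1* and *Col11a1*, both known from cartilage, *Col11a2* and *Col24a1* stayed at or below 0.87 TPM in every library.

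The type IV genes, which build the basement membrane sheet, had log2 fold changes below 0 in 2 of 3 tested members, and none passed. *Col4a1*, one of the chains of the common type IV trimer, measured 43.0, 44.0, 50.2 and 29.7 TPM in floxed controls 1 to 4 and at 35.8, 39.98, 30.4 and 38.7 TPM in knockouts 1 to 4. Floxed controls 1 to 3 were above all knockouts, and floxed control 4 was below all of them. Its log2 fold change was -0.18 ± 0.16 (SE; 95% interval -0.53 to 0.16; adjusted p = 0.871 in limma), and leaving out each library gave -0.33 without floxed control 4 (adjusted p = 0.471 in limma) to -0.09 without floxed control 3 (adjusted p = 0.985 in limma). It was -0.10 without knockout 3.

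*Col4a2*, its partner, is encoded head to head beside *Col4a1*. It stood at 19.4, 17.7, 16.9 and 11.3 TPM across the floxed libraries and at 14.1, 18.3, 11.9 and 16.4 TPM in the knockouts, and the groups overlapped. The log2 fold change of -0.09 (95% interval -0.49 to 0.31) was -0.25 without floxed control 4 and 0.01 without knockout 3. *Col4a5*, a chain of kidney and other specialised basement membranes, stood at 1.02 ± 0.24 and 1.20 ± 0.40 TPM (SD, n = 4 each). It reached 1 TPM only in floxed control 1 and in knockouts 1, 2 and 4, so it entered the test mainly through the knockouts. *Col4a3*, *Col4a4* and *Col4a6* stayed at or below 0.41 TPM. The median of the 3 tested genes was -0.09, which became -0.25 without floxed control 4 and 0.01 without knockout 3. Requiring a mean of at least 5 TPM, which left out *Col4a5*, gave a median of -0.14.

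The type VI genes, whose chains join in 1 molecule, had the same high and low libraries. *Col6a3* measured 27.5, 21.7, 17.9 and 14.5 TPM in floxed controls 1 to 4 and at 25.9, 32.4, 16.1 and 20.98 TPM in knockouts 1 to 4. *Col6a1* stood at 15.4, 12.95, 12.4 and 7.28 TPM across the floxed libraries and at 14.4, 16.3, 10.6 and 13.1 TPM in the knockouts. *Col6a2* stood at 11.7, 9.12, 9.98 and 5.60 TPM across the floxed libraries and at 11.4, 13.3, 7.62 and 9.68 TPM in the knockouts. In all 3 genes knockout 2 was highest of the 8 libraries, floxed control 4 lowest and knockout 3 lowest of the knockouts. The log2 fold changes were 0.21, 0.19 and 0.20, with 95% intervals of -0.30 to 0.71, -0.27 to 0.66 and -0.28 to 0.69 and adjusted p from 0.903 to 0.906 in limma. Their median was 0.20, and leaving out floxed control 4 gave 0.01, leaving out knockout 2 gave 0.09 and leaving out knockout 3 gave 0.33. *Col6a4*, *Col6a5* and *Col6a6* stayed at or below 0.20 TPM.

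Among the other collagens, *Col18a1* was the most abundant of all 44. It encodes type XVIII, a collagen with heparan sulfate chains whose end fragment is endostatin. It measured 231, 264, 242 and 198 TPM in floxed controls 1 to 4 and at 202, 219, 239 and 238 TPM in knockouts 1 to 4, and its coefficient of variation over the 8 libraries, 9.60%, was the lowest among the 19. The log2 fold change was -0.05 ± 0.10 (SE; 95% interval -0.27 to 0.17; adjusted p = 0.959 in limma).

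*Col14a1*, a fibril-associated collagen, stood at 37.5, 45.4, 36.7 and 19.5 TPM across the floxed libraries and at 30.3, 37.3, 36.6 and 41.2 TPM in the knockouts. The log2 fold change of 0.12 (95% interval -0.37 to 0.60) was -0.13 without floxed control 4. *Col15a1*, a relative of type XVIII found next to basement membranes, stood at 11.9, 13.4, 11.1 and 5.80 TPM across the floxed libraries and at 13.9, 18.2, 8.68 and 14.5 TPM in the knockouts. Its log2 fold change of 0.38 (95% interval -0.20 to 0.95; adjusted p = 0.813 in limma) was 0.14 without floxed control 4. Floxed control 4 was the lowest library for both genes, and both groups overlapped.

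*Col16a1*, another fibril-associated collagen, stood at 4.88 ± 0.84 and 6.04 ± 0.61 TPM (SD, n = 4 each; log2 fold change 0.27, 95% interval -0.05 to 0.59). *Col12a1*, of the same group, stood at 2.50 ± 0.56 and 2.18 ± 0.54 TPM. *Col13a1*, a transmembrane collagen, stood at 1.52 ± 0.39 and 1.07 ± 0.13 TPM (log2 fold change -0.27, 95% interval -0.62 to 0.08; adjusted p = 0.742 in limma). The tested others split evenly, 3 above and 3 below 0, with a median of 0.03 that was -0.13 without floxed control 4. Of the 15 untested others, *Col10a1* was listed at 0 in every library, and only *Col7a1*, the anchoring fibril collagen of skin, reached 1 TPM anywhere, at 1.34 TPM in floxed control 4 against 0.02 to 0.47 TPM elsewhere.

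Because floxed control 4 was the lowest control in 17 of the 19 tested collagens, each class was also expressed as a share of the library's collagen TPM, a measure chosen after the values were seen and not tested. The basement membrane share was 9.99%, 9.78%, 10.7% and 9.92% in floxed controls 1 to 4 and 8.69%, 8.61%, 7.90% and 8.97% in knockouts 1 to 4. All controls, floxed control 4 included, were above all knockouts. The means were 10.1% ± 0.41 and 8.54% ± 0.46 (SD, n = 4 each). The fibrillar share was 33.2% ± 3.37 in the controls and 37.3% ± 4.07 in the knockouts, the beaded filament share 7.04% ± 1.02 and 7.70% ± 1.28, and that of the others 49.6% ± 4.19 and 46.4% ± 5.60, and these groups overlapped.

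**Figure D3:**
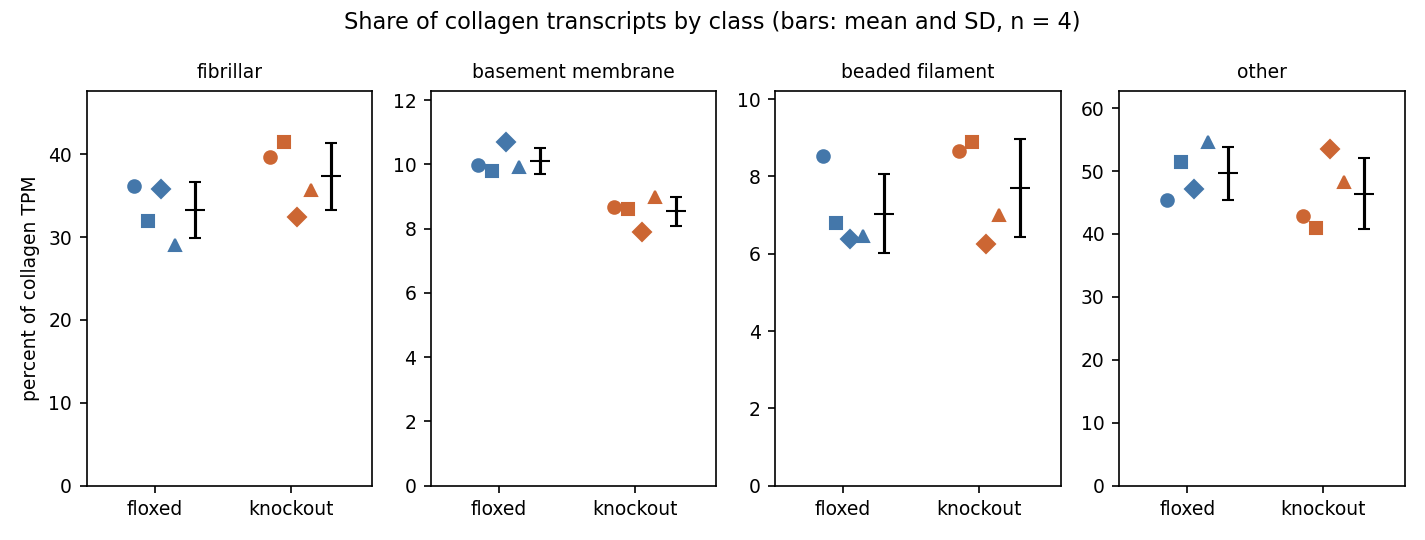
Percent of collagen TPM held by each class in the 4 floxed control and 4 knockout libraries (vertical axes differ by panel and start at 0), with mean and SD (n = 4) at the right of each group. The basement membrane share of the controls, 9.78% to 10.7%, lies above that of the knockouts, 7.90% to 8.97%.

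Set against fibrillar TPM alone, basement membrane TPM came to 27.6%, 30.6%, 29.9% and 34.2% in the controls and 21.9%, 20.8%, 24.4% and 25.1% in the knockouts, which also did not overlap. By gene, 4 of the 19 tested collagens had shares of collagen TPM that did not overlap between the groups, which held for 3.30% of all genes divided by the same collagen TPM. *Col4a1* (7.09% ± 0.53 against 5.84% ± 0.27; SD, n = 4 each), *Col4a2* (2.77% ± 0.18 against 2.44% ± 0.22) and *Col13a1* (0.256% ± 0.027 against 0.173% ± 0.016) were lower in the knockouts. *Col16a1* was higher (0.837% ± 0.107 against 0.976% ± 0.045). The share of *Col5a3*, whose TPM did not overlap, did overlap, at 0.937% in floxed control 4 and 0.854% and 0.863% in knockouts 1 and 2. Collagens are part of their own denominator here, and the count was made after the values were seen.

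For 6 pairs of chains, the levels were compared from library to library. Of these, *Col1a1* and *Col3a1* had a Pearson r of 0.98 on the log2(TPM + 1) scale and a Spearman rho of 1.00 over the 8 libraries (adjusted p = 0.000149 and 0.000298, exact permutation over pairings, 2-sided, Benjamini-Hochberg over the 6 pairs; the unadjusted p of r, 2.48e-05, is the smallest the pairings can give). *Col1a1* and *Col1a2* (r = 0.98, rho = 0.79), *Col5a1* and *Col5a2* (r = 0.98, rho = 0.90), *Col6a1* and *Col6a2* (r = 0.98, rho = 0.93) and *Col6a1* and *Col6a3* (r = 0.91, rho = 0.98) had adjusted p of 0.000655, 0.000655, 0.000446 and 0.000446 for r and of 0.0279, 0.00685, 0.00446 and 0.00119 for rho by the same exact test. Without floxed control 4 and the next farthest library these r values were between 0.89 and 0.97.

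The pair *Col4a1* and *Col4a2* had r = 0.87 and rho = 0.79 (adjusted p = 0.00598 and 0.0279 by the same exact test). Without floxed control 4 and knockout 3 its r was 0.51, so the relation rested in part on those libraries. All pairs share the scaling of each library and the low values of floxed control 4.

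**Figure D4:**
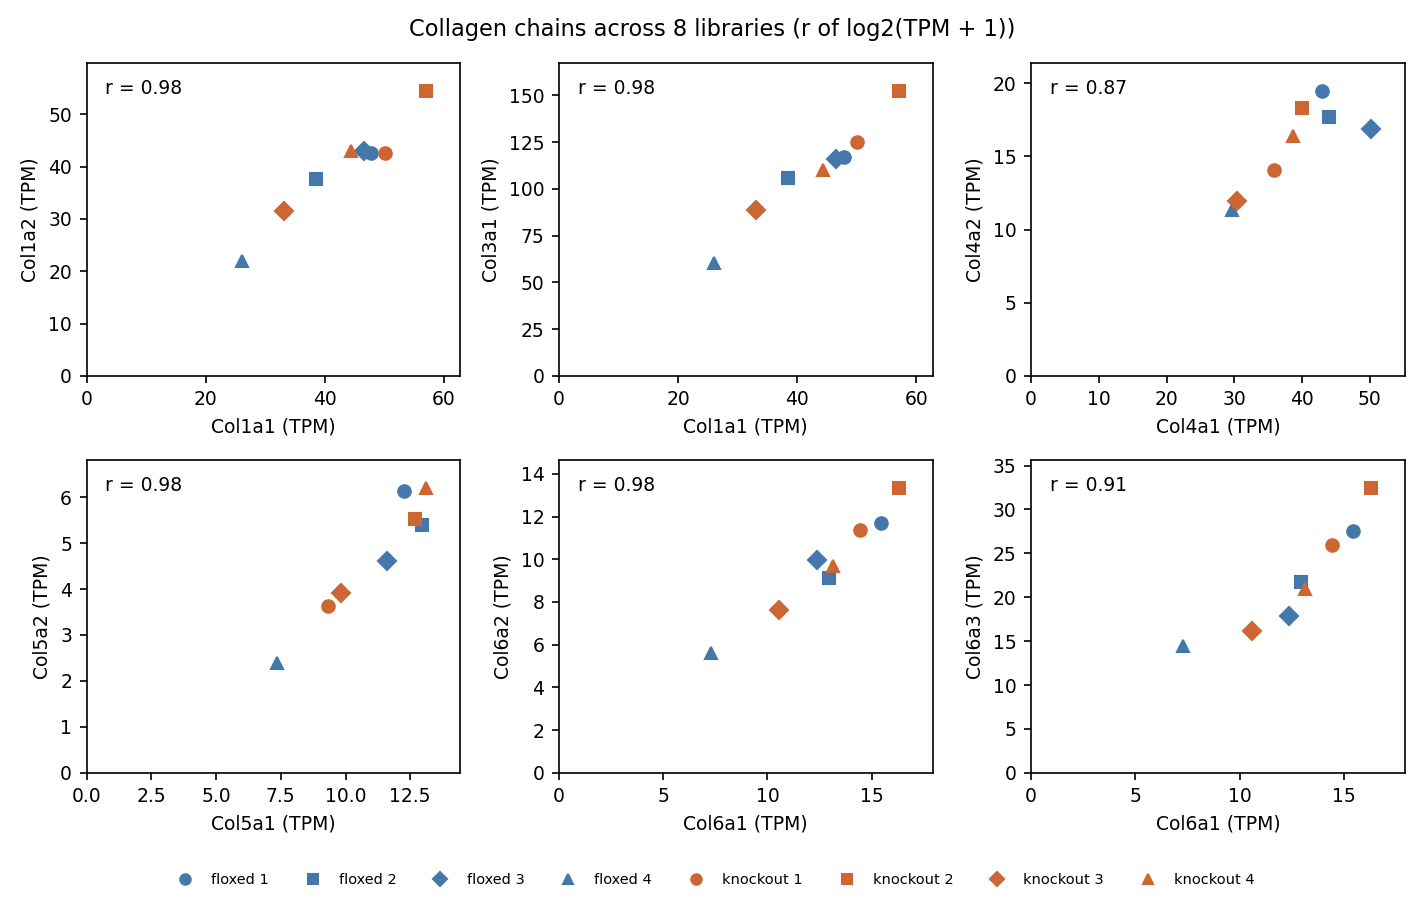
TPM of 6 pairs of collagen genes in the 8 libraries (blue floxed controls, orange knockouts, symbol by number), with Pearson r of the log2(TPM + 1) values. In all 6 pairs the ratios of the 2 genotypes overlap. Col4a1 and Col4a2 have the lowest r (0.87), although their ratio spans 2.18 to 2.97 over the libraries, against 1.99 to 3.09 for Col5a1 to Col5a2.

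The ratios of these chains were not shown to differ between the genotypes. The TPM ratio of *Col1a1* to *Col1a2* was 1.1 ± 0.07 in the controls and 1.08 ± 0.07 in the knockouts (SD, n = 4 each), and that of *Col1a1* to *Col3a1* 0.401 ± 0.028 and 0.388 ± 0.016. *Col4a1* to *Col4a2* gave 2.57 ± 0.31 and 2.41 ± 0.17, *Col5a1* to *Col5a2* 2.50 ± 0.45 and 2.38 ± 0.21, *Col6a1* to *Col6a2* 1.32 ± 0.07 and 1.31 ± 0.08, and *Col6a1* to *Col6a3* 0.588 ± 0.079 and 0.585 ± 0.069. The adjusted p was 0.943 for all 6 ratios (2-sided exact permutation test of the mean log2 ratio, 70 assignments, Benjamini-Hochberg over 6), and in each the groups overlapped. The lowest unadjusted p, 0.429, was that of *Col4a1* to *Col4a2*.

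Genes that make, process and crosslink collagen did not pass. Of 34 listed, 27 were tested, 21 had a log2 fold change above 0 and 6 below, 0 passed in limma and 2 had an unadjusted p under 0.05, with a median of 0.12 that was 0.02 without floxed control 4. The 4 of smallest p began with *Ppib*, a prolyl isomerase of the collagen folding complex, at 428 ± 26.7 and 484 ± 6.17 TPM (SD, n = 4 each; log2 fold change 0.18, adjusted p = 0.495 in limma). *Loxl4*, a lysyl oxidase that crosslinks collagen, stood at 0.76 ± 0.32 and 1.49 ± 0.46 TPM and *P4ha2*, a prolyl hydroxylase subunit, at 2.92 ± 0.68 and 4.04 ± 0.80 TPM. *Loxl4*, 1 of the 2 genes with an unadjusted p under 0.05 in limma, entered the test mainly through the knockouts. All knockouts reached the 1 TPM of the filter, and among the controls only floxed control 1 did. The collagen chaperone gene *Serpinh1* (HSP47) stood at 53.0, 46.2, 56.4 and 34.6 TPM across the floxed libraries and at 64.0, 67.2, 45.3 and 56.0 TPM in the knockouts. Like type I, it was highest in knockout 2 and lowest in floxed control 4.

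Of 21 genes of collagen breakdown, 15 were tested, 10 above and 5 below 0, and 0 passed in limma, with 0 at an unadjusted p under 0.05. Their median of 0.09 was -0.11 without floxed control 4. *Timp1*, the inhibitor of matrix metalloproteinases, stood at 20.3, 15.2, 21.8 and 12.7 TPM across the floxed libraries and at 26.8, 30.5, 17.1 and 20.4 TPM in the knockouts (log2 fold change 0.41, adjusted p = 0.679 in limma). Knockout 2 was again highest and floxed control 4 lowest. The metalloproteinase gene *Mmp19*, the prolidase gene *Pepd*, which frees proline from collagen fragments, and *Mrc2*, an uptake receptor for collagen, had log2 fold changes of 0.28, 0.18 and 0.31 and did not pass.

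Of 10 collagen receptors, 6 were tested and 5 were above 0, and 0 passed in limma, with 0 at an unadjusted p under 0.05. The median of 0.15 was 0.02 without floxed control 4. The integrin chain *Itga1* stood at 4.05 ± 0.46 and 5.19 ± 1.31 TPM (SD, n = 4 each) and *Adgrg1*, an adhesion receptor for type III, at 1.88 ± 0.86 and 2.53 ± 0.53 TPM. The discoidin domain receptors *Ddr2* and *Ddr1* had log2 fold changes of 0.16 and 0.14.

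The TGF-beta axis, the best known driver of collagen transcription, was split: 10 of 19 tested genes were above 0 and 9 below, the median was 0.00 (-0.17 without floxed control 4) and 0 passed in limma, with 1 at an unadjusted p under 0.05. *Ltbp3*, which holds latent TGF-beta in the matrix, stood at 8.43 ± 1.40 and 11.2 ± 1.88 TPM (SD, n = 4 each; adjusted p = 0.616 in limma). *Smad7*, the pathway's inhibitor, stood at 4.63 ± 0.65 and 3.59 ± 0.54 TPM, and *Smad3*, which carries the signal to the nucleus, at 3.81 ± 0.96 and 4.46 ± 0.64 TPM. None of these passed.

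Of 25 proteoglycans and glycoproteins that bind fibrils or basement membranes, 23 were tested, 17 above and 6 below 0, and 0 passed in limma, with 2 at an unadjusted p under 0.05. Their median of 0.12 was -0.07 without floxed control 4. *Fmod*, a small proteoglycan on fibrils, stood at 3.71, 2.48, 3.72 and 1.78 TPM across the floxed libraries and at 6.74, 5.68, 3.45 and 3.86 TPM in the knockouts (log2 fold change 0.59, adjusted p = 0.533 in limma). The elastin gene *Eln* stood at 10.8, 6.42, 6.17 and 5.54 TPM across the floxed libraries and at 14.1, 13.3, 6.82 and 10.4 TPM in the knockouts (0.56, adjusted p = 0.606 in limma). For both genes the groups overlapped. The laminin chain *Lamb2* and *Ogn* (osteoglycin) had log2 fold changes of 0.42 and 0.36 and did not pass. *Ogn* lay near the filter level and also entered the test mainly through the knockouts. It reached 1 TPM only in floxed control 3 and in knockouts 1, 2 and 4.

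Markers of the cells that make collagen were read beside these values, and their part in the collagen results was not tested. All 10 stellate markers were tested and 0 passed, 6 above and 4 below 0, with 0 at an unadjusted p under 0.05 in limma. Their summed level was 175 to 300.4 TPM in the controls, lowest in floxed control 4, and 229 to 276 TPM in the knockouts. Of 8 markers of activated stellate cells and fibroblasts, 7 were tested, and the sum was 38.1 to 70.6 TPM in the controls and 51.6 to 69.9 TPM in the knockouts. *Gli1*, a marker of portal fibroblasts, was at or below 0.16 TPM and was listed at 0 in 2 libraries, both of them controls. *Acta2*, the actin of activated stellate cells, stood at 9.04 ± 2.71 and 9.88 ± 1.78 TPM (SD, n = 4 each). Of the 7, *Mfap4* had the smallest p (2.65 ± 0.97 and 4.32 ± 1.35 TPM; adjusted p = 0.605 in limma) and was the only 1 with an unadjusted p under 0.05.

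Endothelial markers were below 0 in 7 of 8, and none passed. Of the 8, 1 had an unadjusted p under 0.05 in limma, against 8.02% of all genes. Their sum was 91.6, 107.6, 87.3 and 39.6 TPM in floxed controls 1 to 4 and 50.7, 61.3, 69.1 and 69.6 TPM in knockouts 1 to 4. As in *Col4a1*, 3 controls were above all knockouts and floxed control 4 below all. Within the knockouts the orders differed. The sum was lowest in knockout 1 and highest in knockout 4, and *Col4a1* was lowest in knockout 3 and highest in knockout 2. Floxed control 4, with the lowest endothelial sum, had a basement membrane share of collagen TPM within the range of the other controls. This is 1 library, and a relation of that share to endothelial content was not tested. Cholangiocyte markers summed to 246 to 467 TPM across the floxed libraries and to 455, 632, 180 and 330.1 TPM in knockouts 1 to 4, highest in knockout 2 and lowest in knockout 3, as were the type I and type VI genes among the knockouts. Most of this sum was *Spp1*, at 235 to 443 TPM in the controls and 435, 604, 171 and 314 TPM in knockouts 1 to 4. *Krt19* and *Epcam*, at far lower TPM, had the same highest and lowest knockouts, and *Sox9* did not. Of the 6 cholangiocyte markers, 4 were tested and all 4 were above 0, with 0 at an unadjusted p under 0.05 in limma. Kupffer cell markers summed to 176 to 408 and 159 to 346 TPM, 1 of 4 tested being above 0, and 1 had an unadjusted p under 0.05 in limma. Hepatocyte markers summed to 65429 to 78824 and 59153 to 65693 TPM, and all 6 were below 0. The 3 mesothelial markers were not tested and summed to at most 1.67 TPM, with *Upk3b* listed at 0 in 4 libraries and *Msln* in 1.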

How the data were processed

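The 8 mouse liver samples were sequenced from stranded total RNA libraries, per the labels' protocols. The authors deposited 1 table of TPM values, 8 columns of 55416 mouse Ensembl identifiers rounded to 2 decimals. Quantification used RSEM 1.3.3, per the submitters' processing notes, which list GRCh38.p13, a human build, although the identifiers are mouse; aligner and annotation: not given in the sources used here. Read depth cannot be had from TPM, which leaves out counting intervals and count tests. A table of names gave symbols for 52083 identifiers. The comparison used limma 3.58.1 in R 4.3.3 (trend) on log2(TPM + 1) over the 12710 genes reaching 1 TPM in 4 or more libraries, with Benjamini-Hochberg adjustment, and was tested on simulated data. The collagens and lists were chosen with earlier results of these data known. Every tested collagen was named, with all libraries for the 12 most abundant and for any with an unadjusted p under 0.05, and up to 4 members of smallest p per pathway list, of which 1 is not reported here. *Acta2*, *Gli1*, *Ecm1*, *Colec11*, *Alb*, *Upk3b*, *Msln* and *Col7a1* were named after their values were seen. Other settings tried were a pseudocount of 0.1 or 5, dropping the filter, requiring a 5 TPM mean, 3 other scalings, library weights, robust eBayes, a replicate block, and each library left out in turn. Shares of collagen TPM were added after the data were seen.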

Additional observations from a re-analysis of the deposited data

Results flagged for a closer look

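In 94 groups of 4 libraries checked, 3 had a library separated from the nearest by most of the group's range (Dixon's test at its 95% critical value), where chance gives about 5%. The collagen sum of floxed control 4, 426 TPM, stood below the 638 to 647 TPM of the other controls. The hepatocyte marker sum of knockout 2, 59153 TPM, stood below the 65398 to 65693 TPM of the other knockouts. Knockout 2 was also the highest knockout in 13 of the 19 tested collagens. The *Col1a1* to *Col1a2* ratio of knockout 1, 1.17, stood above the 1.034 to 1.051 of the other knockouts, within the range of the controls (1.02 to 1.19).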

How the results depend on the processing

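The collagen count past the threshold was 0 under all 18 other settings (337 fits of single collagens, lowest adjusted p 0.202 in limma). Among all genes it was 13, and 8 with a pseudocount of 0.1, 6 with 5, 0 without a filter, 20 without mitochondrially encoded and top 20 genes, 20 with library weights and 0 to 16 leaving out each library. The cause was not tested. With the replicate block it was 0 for all genes and 0 for collagens (lowest adjusted p 0.802 in limma). Whether the replicate numbers pair the samples is not known, since the labels give them no meaning. Same-numbered libraries had correlations of deviations from group means of -0.20 to 0.03, and the other pairs of libraries -0.10 to 0.19, which cannot exclude a pairing. Of the pathway and marker genes, 0 passed, and 1 (*Marco*) with a mean of at least 5 TPM, without mitochondrially encoded and top 20 genes, with robust eBayes and with library weights. *Col5a1* was -0.0193 with median-of-ratios scaling, -0.0201 with quantile normalization and -0.0216 with library weights, and *Col5a2* -0.0106 with library weights. Leaving out each library, log2 fold changes ran from -0.0080 to 0.32 for *Col6a1*, -0.13 to 0.0090 for *Col18a1*, -0.13 to 0.26 for *Col14a1*, -0.15 to 0.21 for *Col5a2*, -0.13 to 0.12 for *Col5a1* and -0.25 to 0.0130 for *Col4a2*. Log2 ratio differences ran from -0.16 to 0.0477 for *Col5a1* to *Col5a2*, -0.0402 to 0.0244 for *Col6a1* to *Col6a2* and -0.0774 to 0.0767 for *Col6a1* to *Col6a3*. The basement membrane share, -0.24 on the log2 scale, was -0.33 without *Col18a1* in the denominator and -0.41 over fibrillar TPM alone. TPM keeps no depth, so the precision of low genes is unknown.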
